A study of Mus musculus with 384 samples.

Results

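The genes described here are 37 transcripts of S phase, the stage of the cell cycle in which DNA is copied, out of 46078 gene rows measured in single granulocyte/macrophage progenitors (GMPs) of mouse bone marrow. They were taken from a list of replication genes by symbol, and all 37 were found and passed the filter on low counts. Each well of a 96-well plate held 1 sorted cell, whose RNA was read by SMART-seq2, a full-length cDNA method. The study asked how GMPs change when the BCR-ABL oncogene is switched on.

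The BCR-ABL sets, numbered 1, 2 and 4 in the labels, came from C57Bl/6 Scl-tTA::TRE-BCR/ABL mice, in which Scl regulatory DNA drives the tTA transactivator, so the oncogene is on only in cells where that DNA is active. These mice drank 20 mg/L doxycycline, which keeps the transgene off, until its withdrawal at 5 weeks of age, and BCR-ABL and control mice were studied 5 to 6 weeks after induction. The protocol text is the same for the control wells, and whether control mice drank doxycycline, or their genotype beyond strain C57Bl/6, is not stated in it. All 4 sets were sorted as lineage-negative c-Kit+ Sca-1- cells with CD34 and Fcγ receptor. There were 3 BCR-ABL sets and 1 Control set, and no source says whether sets were separate animals. Xist, the RNA of the inactive X, had 324, 0 and 0.156 CPM (reads per 1000000 gene reads) in BCR-ABL sets 1, 2 and 4 and 461 CPM in Control. If each set came from 1 animal, set 1 did not share it with sets 2 and 4. The p-values measure only the spread between the BCR-ABL sets, part of which may be technical.

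Kept wells had 50000 or more gene reads and 1000 or more genes: 76, 61 and 92 of 96 in BCR-ABL sets 1, 2 and 4 and 94 of 96 in Control. The median depth per set lay between 1200639 and 2084608 gene reads. Kit and Cd34, the genes of 2 sorted markers, were present in every set, with Kit at 240 to 314 CPM in the BCR-ABL sets and 239 in Control, and Cd34 at 146 to 180 against 440. Summed over 18 monocyte markers, the level was 5736 to 7284 CPM in the BCR-ABL sets and 10173 in Control, and over 15 neutrophil markers 1199 to 1903 against 303. Early progenitor markers (328 to 392 CPM against 643) were also lower in sum in each BCR-ABL set. So were lymphoid markers (57.2 to 69.1 against 95.4) and dendritic markers (51.9 to 74.4 against 98.1). By log2 fold change these 3 lists were split. Of 11 early progenitor markers, which include Cd34, 5 were positive and 6 negative. Of the 4 lymphoid and 4 dendritic markers tested, 2 of each list were positive and 2 negative. Erythroid and megakaryocyte markers and basophil and mast cell markers overlapped. Mmp9 and Itgb2l, neutrophil markers, had 0 reads in Control, and no monocyte marker was at 0 in any set. The part of this difference in cell makeup in the results below was not tested. In summed reads, fewer cells of a type and less RNA per cell cannot be told apart.

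Before S phase, origins of replication are licensed when Cdc6 and Cdt1 help load the MCM2-7 helicase onto DNA, and geminin, encoded by Gmnn, stops a second loading. When S phase starts, Cdc45 and the GINS complex join the helicase, polymerases copy the strands behind it on the PCNA clamp, and histones and nucleotides are made to match. Many of these genes are transcribed by E2F factors once the retinoblastoma proteins let go of them. In bone marrow, GMPs divide fast and give rise to neutrophils and monocytes, with Gfi1 and Cebpe marking the first path and Irf8 the second.

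E2F letters were found in promoters of 13 of the 28 members that had a promoter sequence, 4 of them helicase genes. RefSeq start sites of build GRCm38.p6, the assembly also named mm10, gave 31 promoter windows for 28 of the 37 members, each from 250 bases before the start to 50 after it. Atad2, Dscc1, Exo1, Gins2, Gmnn, Mcm4, Rfc2, Tipin and Usp1 had no entry in the table. The E2F letters TTTCCCGC, TTTGGCGC, TTTCGCGC and TTTGCCGC were searched on both strands. They were found in 13 of 31 member windows, or 41.9%, against 2.27% of all 32851 windows. Of 67 windows of 54 other replication genes 23.9% held them, and of 51 windows of 46 G2/M genes, which act at mitosis, 5.88%. These letters can overlap each other, as they do in Mcm5 and Mcm6.

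The opposite pattern was seen for TTTGAA, the letters of the CHR element of mitotic promoters. It was found in 16.1% of member windows, 66.7% of G2/M windows and 17.9% of all windows. CCAAT, the NF-Y letters, was found in 70.97% of member windows and 74.5% of G2/M windows, against 41.8% for other replication genes and 37.4% of all windows. A match is a description of these letters and not a bound site. The 5 promoters below are those of the helicase genes Mcm5 and Mcm6, which had overlapping matches, of the loader Cdc6, and of Hells and Cdca7, genes discussed below for their levels. Each line gives the 250 bases before the start, 5′ to 3′ on the gene's strand, with the E2F letters in capitals. The stretches lie at chr8:75109259-75109508 (plus strand), chr1:128359706-128359955 (minus strand), chr11:98907901-98908150 (plus strand), chr19:38930740-38930989 (plus strand) and chr2:72475969-72476218 (plus strand).
Mcm5: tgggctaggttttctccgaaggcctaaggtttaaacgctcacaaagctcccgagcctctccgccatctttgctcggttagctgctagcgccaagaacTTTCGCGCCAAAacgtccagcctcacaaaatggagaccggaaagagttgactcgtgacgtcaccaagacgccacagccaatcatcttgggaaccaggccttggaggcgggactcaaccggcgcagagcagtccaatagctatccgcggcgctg
Mcm6: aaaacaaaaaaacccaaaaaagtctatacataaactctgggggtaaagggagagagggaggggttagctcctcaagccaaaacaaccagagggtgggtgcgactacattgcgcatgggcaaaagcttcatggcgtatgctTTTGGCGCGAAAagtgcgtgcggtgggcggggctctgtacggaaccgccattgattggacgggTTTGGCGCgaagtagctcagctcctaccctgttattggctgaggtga
Cdc6: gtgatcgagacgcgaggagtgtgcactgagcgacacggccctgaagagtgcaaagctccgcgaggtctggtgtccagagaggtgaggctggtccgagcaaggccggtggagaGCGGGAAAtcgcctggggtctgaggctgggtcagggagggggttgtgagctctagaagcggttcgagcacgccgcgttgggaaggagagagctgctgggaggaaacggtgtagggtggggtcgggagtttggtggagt
Hells: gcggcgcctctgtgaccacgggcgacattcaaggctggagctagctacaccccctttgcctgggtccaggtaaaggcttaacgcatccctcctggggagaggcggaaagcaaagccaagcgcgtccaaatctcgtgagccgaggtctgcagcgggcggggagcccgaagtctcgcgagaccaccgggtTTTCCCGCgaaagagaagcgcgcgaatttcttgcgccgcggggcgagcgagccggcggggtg
Cdca7: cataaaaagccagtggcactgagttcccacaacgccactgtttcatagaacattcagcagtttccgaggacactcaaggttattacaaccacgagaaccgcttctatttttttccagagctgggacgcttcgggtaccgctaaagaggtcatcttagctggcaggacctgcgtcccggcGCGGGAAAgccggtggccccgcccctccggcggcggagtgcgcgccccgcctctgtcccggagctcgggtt
In Mcm6 the matches began 110, 106 and 47 bases before the start, and in Mcm5 153 and 149 bases before it. The matches of Cdc6, Hells and Cdca7 began 138, 62 and 71 bases before the start. The 8 other members with these letters were Mcm3, Mcm7, Dtl, Uhrf1, Clspn, Pola1, Pold3 and Ubr7, and in Clspn, Mcm3, Pold3 and Ubr7 every match lay after the start.

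Between BCR-ABL and Control GMPs, no replication gene passed the test. For the test, reads of kept wells were added up within each set, and the Control sum was set against the 3 others by edgeR's quasi-likelihood test with Benjamini-Hochberg adjustment. At an adjusted p under 0.05, 0 of 37 members were called, beside 0% of all 20324 genes tested. At an unadjusted p under 0.05, 0 of 37 were called, beside 7.18% of all genes. DESeq2 called 0 of 37 at an adjusted p under 0.05, beside 2.77% of all genes. The 2 residual degrees of freedom came from BCR-ABL sets alone, with a biological coefficient of variation of 0.68.

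The estimated log2 fold changes were small. They ran from -0.49 to 0.46, with 13 positive, 24 negative and a median of -0.12, while the median over all genes tested was 0.05. With wells thinned before summing 6 members were positive, and with the mean of CPM over wells 7. In the 37 members' summed level, the BCR-ABL sets stood at 6757, 7616 and 5659 CPM and Control at 7279 CPM. Set 2 was above Control and set 4 was the lowest.

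The BCR-ABL sets did not move together. Against Control, 12 of 37 members were higher in set 1, 23 in set 2 and 4 in set 4, while of all genes 45.9%, 46.3% and 51.1% were higher. The median log2 ratio of members to Control was -0.12 in set 1, 0.09 in set 2 and -0.37 in set 4, an SD of 0.23 between sets. Without set 4, 21 of 37 members had a positive log2 fold change and the median turned to 0.02. Only Gmnn, Rrm2 and Blm, 3 of 37, lay above Control in all 3 BCR-ABL sets, beside 23.2% of all genes. Another 13 of 37 lay below Control in all 3 sets, beside 27.8% of all genes. These 13 were Mcm4, Prim1, Pola1, Rfc2, Tyms, Clspn, Tipin, Rad51ap1, Usp1, Nasp, Slbp, Hells and Cdca7.

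**Figure D1:**
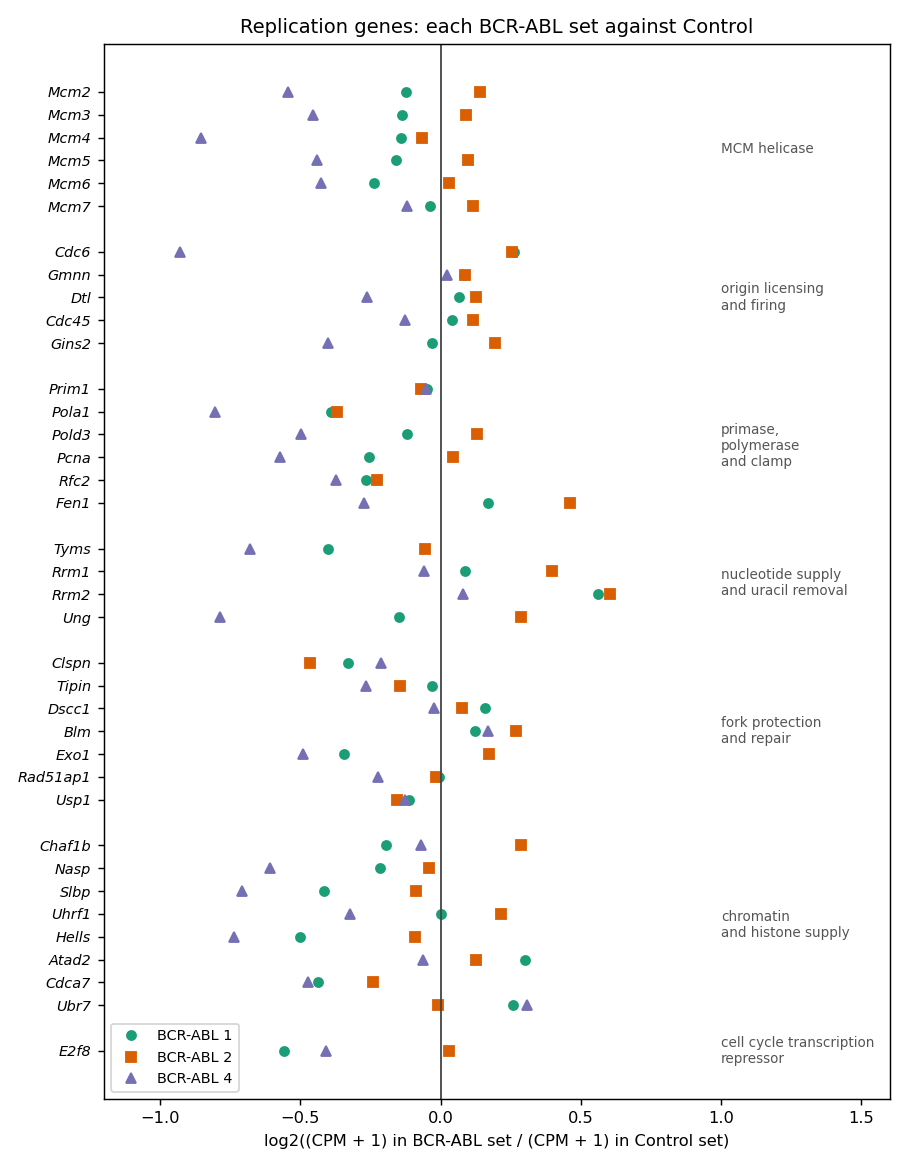
Log2 ratio of (CPM + 1) in each BCR-ABL set to (CPM + 1) in the Control set for the 37 members, grouped by role, with 1 point per BCR-ABL set. Set 4 lies left of 0 for 33 of 37 members, while set 2 lies right of 0 for 23.

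The helicase genes are the core of the list, and their levels moved with the set. Mcm2 stood at 393, 472 and 294 CPM in BCR-ABL sets 1, 2 and 4 and at 428 CPM in Control. Mcm3 stood at 450, 527 and 361 CPM against 495 CPM, and Mcm5 at 498, 594 and 409 CPM against 555 CPM. In each of these genes Control fell between sets 1 and 2, and set 4 was the lowest. Mcm6 stood at 600, 724 and 527 CPM against 708 CPM, and Mcm7 at 282, 315 and 267 CPM against 290 CPM, with Control again between the highest BCR-ABL set and the others. Mcm4 was the exception, with 257, 272 and 157 CPM in sets 1, 2 and 4 and 284 CPM in Control, so that the groups did not overlap. Its log2 fold change was -0.29 with an SE of 0.36 (edgeR adjusted p = 0.927). Of the 6 Mcm genes, 5 had a negative log2 fold change, and Mcm2, Mcm3 and Mcm5 turned positive, by at most 0.05, without set 4. Mcm7 shares exon bases with Cops6, Ap4m1, Mir25 and Mir93, and how such reads were counted is not known.

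Genes of origin licensing and firing showed no common direction. Cdc6, the helicase loader, had 91.8, 91.2 and 39.7 CPM in sets 1, 2 and 4 and 76.3 CPM in Control. Set 4 was thus under the level of the other 3 sets, and without it the log2 fold change moved from -0.01 to 0.29. Gmnn, whose protein blocks reloading, stood at 156, 157 and 150 CPM against 147 CPM, a spread of 3.72 CPM (SD, n = 3). Dtl, part of the ligase that destroys Cdt1 in S phase, and Cdc45 and Gins2, parts of the active helicase, had log2 fold changes of 0.01, 0.03 and -0.04. Cdc45 and Gins2 share exon bases with Ufd1 and Gse1.

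Among the genes that copy DNA, the polymerase α subunit Pola1 and the clamp loader subunit Rfc2 had the lowest p-values. Pola1 had 103, 104 and 76.96 CPM in sets 1, 2 and 4 and 135 CPM in Control, with no overlap. Its log2 fold change of -0.49, SE 0.24, was the most negative of the members (edgeR p = 0.104, adjusted p = 0.770). Pola1 is on the X chromosome, and the sets differed in Xist as given above. The part of this difference in the Pola1 result was not tested.

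Rfc2 stood at 315, 324 and 292 CPM against 379 CPM, also without overlap, with a log2 fold change of -0.27, SE 0.14 (edgeR p = 0.123, adjusted p = 0.786). It shares exon bases with Lat2. Pcna, the sliding clamp, stood at 139, 171 and 111 CPM against 166 CPM, and set 2 passed Control. Its pseudogenes Pcna-ps1 and Pcna-ps2 may share reads. Prim1, the primase subunit, was nearly flat, at 140, 138 and 139 CPM against 144 CPM. The polymerase δ subunit Pold3 and the flap nuclease Fen1 had log2 fold changes of -0.12 and 0.18 and overlapped Control.

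In nucleotide supply the members split. Rrm2, the ribonucleotide reductase subunit that is made in S phase, had 383, 395 and 274 CPM in sets 1, 2 and 4 and 260 CPM in Control. Every BCR-ABL set lay above Control, set 4 only narrowly, and its log2 fold change of 0.46, SE 0.27, was the highest of the members (edgeR p = 0.162, adjusted p = 0.810). Its partner subunit Rrm1 stood at 364, 452 and 329 CPM against 343 CPM and overlapped.

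Tyms, thymidylate synthase, went the other way, at 133, 169 and 110 CPM against 176 CPM, with a log2 fold change of -0.34, SE 0.28 (edgeR adjusted p = 0.849). A pseudogene, Tyms-ps, may share its reads. Ung, which removes uracil from DNA, stood at 89.02, 121 and 56.97 CPM against 98.8 CPM, a BCR-ABL spread of 31.8 CPM (SD, n = 3) that covers Control.

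Of the 7 genes of fork protection and repair, 4 lay below Control in all 3 BCR-ABL sets and 1 above. Of all genes, 27.8% lay below Control in all 3 sets and 23.2% above. Clspn, the checkpoint mediator claspin, stood at 33.8, 30.7 and 36.7 CPM against 42.7 CPM in Control, without overlap, at a log2 fold change of -0.32, SE 0.19 (edgeR p = 0.164, adjusted p = 0.812). Blm, the Bloom helicase, was the reverse, at 36.7, 40.7 and 37.9 CPM against 33.6 CPM. Usp1, which removes ubiquitin from PCNA, stood at 115, 112 and 114 CPM against 125 CPM, and Rad51ap1, a repair gene, at 76.5, 75.95 and 65.7 CPM against 76.8 CPM. The last of these lay below Control by less than 1 CPM in 2 sets.

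Tipin, of the fork protection complex, stood at 290, 268 and 247 CPM against 296 CPM, and Dscc1, of an alternative clamp loader, at 23.1, 21.8 and 20.2 CPM against 20.6 CPM. Exo1, an exonuclease of mismatch repair, had a log2 fold change of -0.17 and overlapped Control.

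Chromatin genes held most of the remaining low p-values. Cdca7, a partner of the remodeller encoded by Hells, had 242, 277 and 236 CPM in sets 1, 2 and 4 and 327 CPM in Control. The groups did not overlap, and the log2 fold change of -0.36, SE 0.16, had the smallest p of all members (edgeR p = 0.0777, adjusted p = 0.737). Hells stood at 99.8, 133 and 84.5 CPM against 142 CPM, with a log2 fold change of -0.40, SE 0.29 (edgeR adjusted p = 0.831).

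Slbp, which binds histone mRNA, stood at 139, 174 and 113 CPM against 185 CPM (log2 fold change -0.36, SE 0.28, edgeR adjusted p = 0.837). It shares exon bases with Gm10459. In Hells and Slbp set 2 came close to Control. Uhrf1, which brings maintenance methylation to new DNA, stood at 171, 198 and 136 CPM against 171 CPM. The histone chaperones Nasp and Chaf1b had log2 fold changes of -0.25 and 0.04, the bromodomain ATPase Atad2 0.15 and Ubr7 0.21. E2f8, the repressor that shuts E2F targets down late in S phase, stood at 55.97, 84.6 and 62.2 CPM against 82.9 CPM.

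Genes outside the list that act in the same pathway were as flat. Of 63 other replication genes, 22 had positive and 41 negative log2 fold changes, with a median of -0.09, and 0 passed the adjusted test. At an unadjusted p under 0.05 there was 1, Orc3 of the origin recognition complex, at 180, 177 and 197 CPM against 135 CPM (log2 fold change 0.47, SE 0.14, edgeR adjusted p = 0.655). The next by p, each lower in every BCR-ABL set, were Atr (log2 fold change -0.47), Rfc5 (-0.32), Fancd2 (-0.38) and Mcmbp (-0.32). None of these passed the adjusted test, and neither did any of the 20324 genes tested.

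Of 28 E2F, pocket protein and G1/S control genes, 15 were positive and 13 negative, with a median of 0.05 and 0 passing at either threshold. The 5 with the smallest p were E2f6 (log2 fold change -0.75), Cdkn2c (-0.77), Ccnd1 (1.41), Cdk4 (-0.33) and E2f2 (-0.83). Of 52 G2/M genes, 25 were positive and 27 negative, with a median of -0.04, and 0 passed the adjusted test. Their smallest p-values belonged to Ndc80 (log2 fold change 0.47), Gtse1 (0.36), Tubb4b (0.27), Mki67 (-0.24) and Psrc1 (0.55). At an unadjusted p under 0.05 there was 1 of these, Ndc80 (edgeR p = 0.0498, adjusted p = 0.695).

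In the same fit and at the same depth, granule and monocyte genes stood further from Control. All 9 primary granule genes had positive log2 fold changes, with a median of 0.58, and of 13 late granule genes tested 12 did, with a median of 2.03. Of 18 monocyte genes 17 were negative, with a median of -1.41. Elane, neutrophil elastase, stood at 17921, 16818 and 19138 CPM against 12980 CPM, and Lcn2, lipocalin, at 433, 256 and 513 CPM against 46.1 CPM. Csf1r, the receptor for the monocyte growth factor, stood at 97.8, 132 and 50.6 CPM against 297 CPM. By smallest p, the leading primary granule genes were Serpinb1a (log2 fold change 0.82), Elane (0.49), Prss57 (1.29), Cst7 (0.71) and Ctsg (0.58), and the leading late ones Lrg1 (3.23), Wfdc21 (3.11), Lcn2 (3.14), S100a8 (1.601) and Chil3 (3.34). The leading monocyte genes were Mpeg1 (-2.28), Psap (-1.29), Zeb2 (-0.86), Cst3 (-0.64) and Cx3cr1 (-2.65), and the leading fate regulators after Zeb2 were Cebpe (1.09), Gfi1 (1.49), Myc (0.43) and Irf8 (-1.97). No gene of these lists passed edgeR's adjusted threshold. DESeq2 called 4 of 9 primary granule genes and 9 of 13 late granule genes higher, beside 2.77% of all genes called in either direction. Of 18 monocyte genes it called 1 higher and 7 lower, and of 10 fate regulators 2 higher and 1 lower. The monocyte and fate lists share Irf8, Klf4 and Zeb2.

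Per length of exon, the members covered a wide range of levels. In CPM per kilobase of exon, averaged over the 4 sets, Tipin was the highest at 147, then Mcm6 at 137 and Mcm5 at 129. The sets gave 155, 143, 132 and 159 for Tipin, 129, 155, 113 and 152 for Mcm6, and 125, 149, 102 and 139 for Mcm5, in the order BCR-ABL 1, 2, 4 and Control. These 3 genes overlapped each other across sets. The lowest per length were Blm at 4.24, Dscc1 at 4.84 and Clspn at 5.01. Lengths were unions of all annotated exons, so genes with long rare exons are understated.

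Within a set, the members varied together from cell to cell. To compare wells at equal depth, each was thinned to 674952 gene reads, which kept 65, 54 and 81 wells of BCR-ABL sets 1, 2 and 4 and 90 of Control. Spearman correlations (rho) across the wells of a set are given as descriptions, since these wells are not replicates and share one depth. The sample titles give a set and a well number, and no plate or library batch. Each of the 37 members had a positive rho with the mean of the other 36 in each of the 4 sets. The median rho of the members was 0.57, 0.60 and 0.53 in the BCR-ABL sets and 0.44 in Control. Of 666 pairs of members 662 had a positive mean rho, with a median of 0.29. No such values are given here for genes at large. The part of the number of genes detected per well in these rho values was not tested.

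By the mean of the 4 sets Pcna followed the rest most closely, with rho of 0.78, 0.80, 0.79 and 0.79 in sets 1, 2, 4 and Control. Rrm2 and Uhrf1 came next, with a mean rho of 0.75 each. Mcm5 had the highest value in sets 1 and 2, at 0.82 and 0.83. The pair with the highest mean rho was Mcm5 and Mcm6, at 0.72, both subunits of 1 helicase and both with the E2F letters shown above. Neither Pcna nor Rrm2 held these letters in the window searched, while Uhrf1 and Mcm5 did. The median of the mean rho with the rest was 0.56 over the 13 members with the letters and 0.53 over the 15 without. Least tied to the rest were Blm, with a mean rho of 0.19, Usp1 with 0.22 and E2f8 with 0.28. The Blm values were 0.16, 0.19, 0.29 and 0.10 and the Usp1 values 0.13, 0.31, 0.26 and 0.16. E2f8 had 0.36, 0.04, 0.39 and 0.32, so that set 2 stood apart.

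The members were not all high in the same cells, and the G2/M genes separated them. A G2/M score was the mean log2(CPM + 1) of the 52 G2/M genes in a well. Of the members, 16 had a negative rho with this score in all 4 sets and 7 had a positive one in all 4. In unthinned wells these counts were 6 and 10, with Mcm4, Mcm6, Dtl, Ung, Chaf1b and Cdca7 negative throughout and Mcm2 and Mcm3 positive in set 1. Ung was the most negative member in every set, at -0.54, -0.59, -0.66 and -0.71 in sets 1, 2, 4 and Control. Mcm4 followed with a mean of -0.39 and Mcm2 with -0.38. At the other end were Blm with 0.31, 0.30, 0.21 and 0.25, Rad51ap1 with 0.50, 0.09, 0.17 and 0.27, and Rrm1 with 0.39, 0.27, 0.08 and 0.21.

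Tyms, E2f8, Rrm2 and Exo1 were the others positive in all sets. Ung and the helicase genes Mcm4 and Mcm2 thus stood at one end of this order, and ribonucleotide reductase, thymidylate synthase, repair genes and the late repressor at the other. In kept Control wells before thinning, Ung had a lower quartile of 0.890 CPM, a median of 41.1 and a upper quartile of 204, so it was nearly off in many cells and high in others. In set 4 its median was 1.26 CPM and its upper quartile 106. The 13 members with E2F letters had a median mean rho with the G2/M score of -0.20, and the 15 with a window but no match had -0.08, with ranges that overlapped, from -0.33 to 0.10 and from -0.62 to 0.27.

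**Figure D2:**
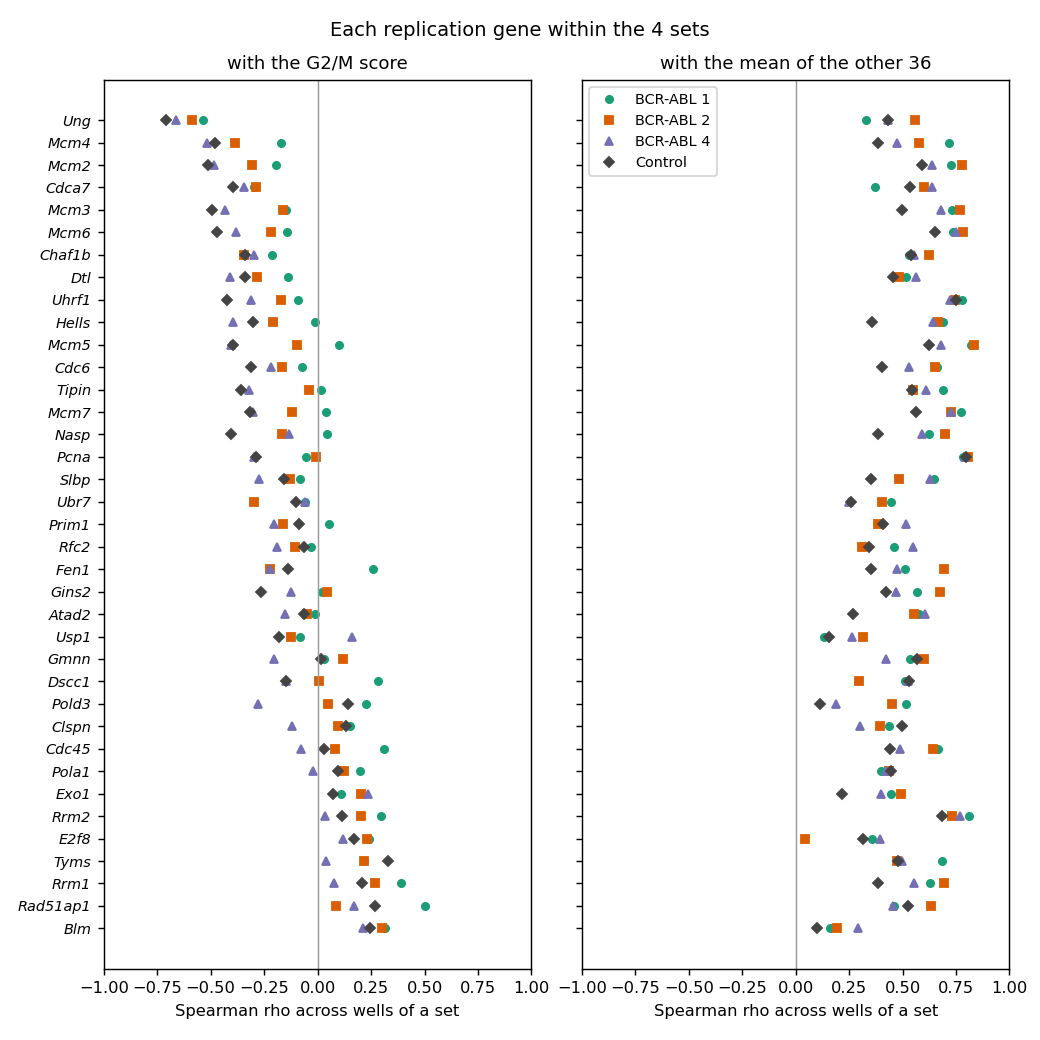
Spearman rho across the wells of each set for the 37 members, with the G2/M score at left and with the mean of the other 36 members at right, ordered by the mean at left. Ung is leftmost in all 4 sets, Blm has the highest mean, and all points at right lie above 0.

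Several genes that drive entry into S phase went with the score. The replication score of a well is the mean log2(CPM + 1) over the 37 members. Ccne2, cyclin E2, had a rho with it of 0.64, 0.61, 0.61 and 0.52, and Ccne1 0.57, 0.59, 0.43 and 0.45. The kinase gene Cdk4 had 0.66, 0.56, 0.59 and 0.33, and E2f1 0.40, 0.52, 0.52 and 0.38. In each of these the sign was the same in all 4 sets. Cdk6, which also pairs with D cyclins, was negative throughout, at -0.37, -0.48, -0.34 and -0.25, as was the inhibitor Cdkn1b, with a mean of -0.23. Ccnb2, a mitotic cyclin, had -0.15, -0.23, -0.37 and -0.53. Ccna2, cyclin A2, had 0.25, 0.02, -0.18 and -0.21, with sets of both signs.

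The score itself did not separate BCR-ABL from Control. Its median was 6.38, 6.43 and 5.74 in BCR-ABL sets 1, 2 and 4 and 6.34 in Control. The BCR-ABL mean was 6.18 ± 0.38 (SD, n = 3), 0.16 below Control, in an exact two-sided permutation test over the 4 sets p = 1, where the smallest possible is 0.25. Set 4 was the lowest and Control lay within the BCR-ABL range. Without set 4 the difference was 0.06.

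The lower quartile of the score was 5.40, 5.75 and 5.00 in BCR-ABL sets 1, 2 and 4 and 5.61 in Control, so set 2 lay above Control. The lowest single well stood at 1.90, 2.41 and 2.27 in the BCR-ABL sets and at 3.88 in Control. Under the lowest Control well lay 4 of 65, 5 of 54 and 8 of 81 wells of sets 1, 2 and 4. Their median of detected genes was 6688.5, 7052 and 8207.5, against 8771, 8629.5 and 8796 over all wells of these sets. Their log2 gene reads per spike-in read stood at 6.76, 6.31 and 7.49, against 8.04, 8.04 and 7.82. The part of these differences in the low scores was not tested.

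Split at the pooled quartiles, 24.6%, 35.2% and 19.8% of BCR-ABL wells and 24.4% of Control wells scored 6.91 or more. Scores under 5.30 were found in 24.6%, 20.4% and 37.04% of BCR-ABL wells and 17.8% of Control wells. The exact 95% binomial intervals of the low share were 14.8 to 36.9%, 10.6 to 33.5% and 26.6 to 48.5% in BCR-ABL sets 1, 2 and 4. For Control the interval was 10.5 to 27.3%. These intervals cover counting error only, and wells are not replicates of a condition. The limits of 6.91 and 5.30 cut a continuous score, with 23 wells within 0.1 of the upper and 12 of the lower.

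**Figure D3:**
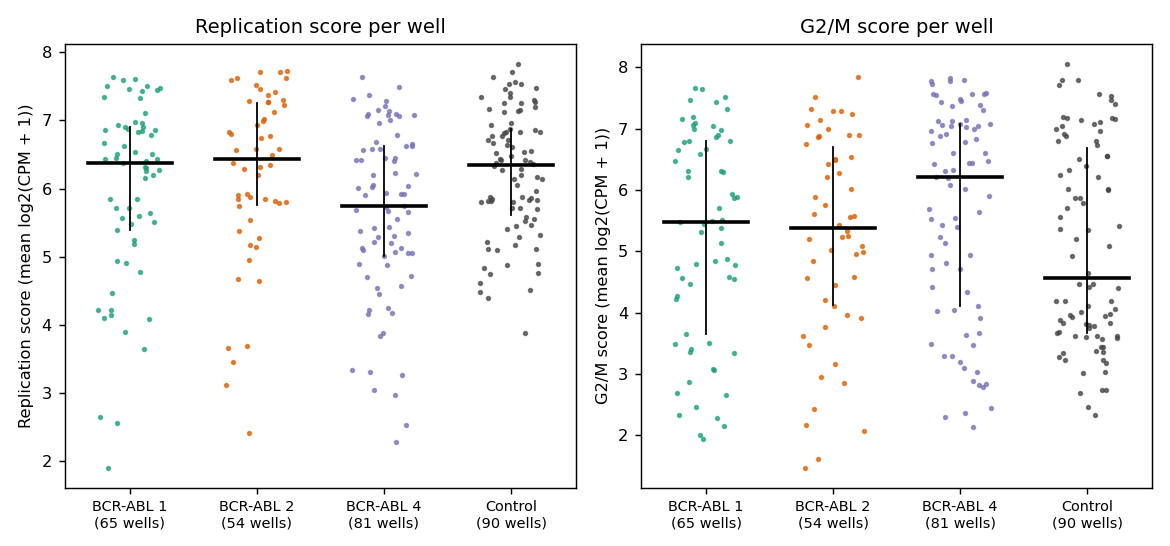
Replication score (left) and G2/M score (right), each the mean log2(CPM + 1) of its genes, per thinned well and set, with the median as a thick bar and the quartiles as a thin line. Median replication scores are 6.38, 6.43, 5.74 and 6.34, and median G2/M scores 5.47, 5.38, 6.20 and 4.56.

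Replication and G2/M scores formed an arc rather than a line. Across wells their rho was only 0.11, -0.07 and -0.23 in BCR-ABL sets 1, 2 and 4 and -0.21 in Control. In unthinned wells it was 0.28, 0.12 and 0.02 against -0.20. Given the number of detected genes, it was -0.20, -0.38 and -0.53 against -0.19. Replication scores tended to be highest at middle G2/M scores. With all wells divided into 3 equal parts by G2/M score, at 4.36 and 6.49, a division made after the wells were seen, the median replication score of the middle part was 6.99, 7.03 and 6.58 in the BCR-ABL sets and 6.97 in Control. In the part with the highest G2/M scores it was 5.72, 5.82 and 5.38 against 5.76. In each set the middle part had the highest median of the 3. The highest single well of the lowest part came close to that of the middle part in set 2, at 7.71 against 7.72. In Control these wells stood at 7.71 and 7.83.

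In the part with the lowest G2/M scores the median replication score was 5.24, 5.91 and 5.83 in the BCR-ABL sets and 6.39 in Control, and the lowest well stood at 1.90, 2.41 and 2.27 against 4.75. This part held 29.2%, 27.8% and 27.2% of BCR-ABL wells and 45.6% of Control wells. Wells low in both scores, under 5.30 and 4.36, were found in every set: 10 of 65, 5 of 54 and 9 of 81 in the BCR-ABL sets and 7 of 90 in Control. Their median replication score was 4.12, 3.45 and 4.25 in the BCR-ABL sets and 5.09 in Control. The highest part held 32.3%, 29.6% and 42.0% against 28.9%. The median G2/M score was 5.47, 5.38 and 6.20 in the BCR-ABL sets and 4.56 in Control, with no overlap of sets. The means lay closer, at 5.23, 5.25 and 5.66 against 5.08, and the summed level of the G2/M genes overlapped, at 7338, 7207 and 8536 CPM against 7836. Median detected genes were 8771, 8630 and 8796 against 8391, and their part in the scores was not tested.

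**Figure D4:**
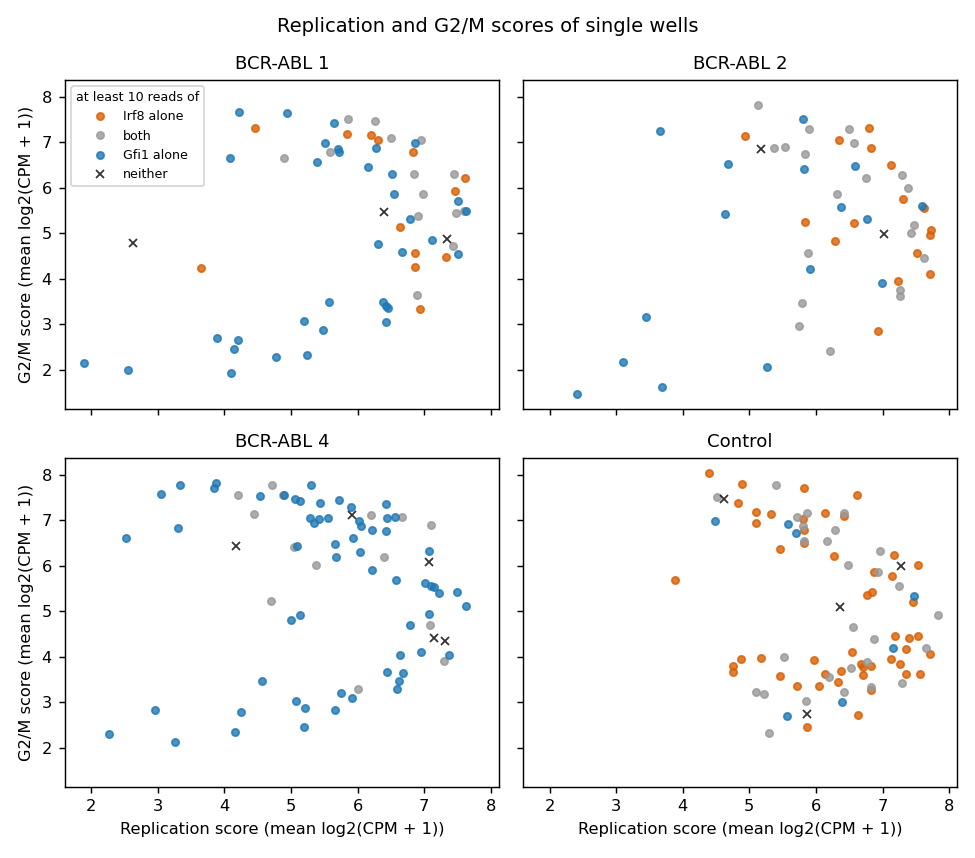
G2/M score against replication score (both mean log2(CPM + 1)) for each thinned well, 1 panel per set, coloured by whether Irf8, Gfi1, both or neither had at least 10 reads. The wells bend around high replication scores at middle G2/M scores, and the lowest wells of the lower left reach replication scores of 1.90, 2.41 and 2.27 in the BCR-ABL panels and 4.75 in Control.

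Against the genes of cell fate, the score tended to be higher with Irf8 and lower with Gfi1, but not in every set. The rho with Irf8 was 0.22, 0.47 and -0.12 in BCR-ABL sets 1, 2 and 4 and 0.20 in Control. With Gfi1, a repressor that favours the neutrophil path, it was -0.24, -0.48, -0.17 and -0.07. Set 2 gave the strongest values in both. Cebpe, which drives the granulocyte path, had -0.32, -0.50, -0.24 and 0.04, so Control did not share its sign. Cd34 had -0.14, 0.35, 0.37 and -0.13, with no common direction.

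Granule genes gave weak relations. The mean log2(CPM + 1) of the primary granule genes had a rho with the replication score of -0.17, -0.29, -0.24 and -0.17, negative in all 4 sets. Elane had -0.27, -0.29, -0.44 and -0.10, and Mpo -0.25, 0.02, -0.25 and -0.12. For late granule genes the rho was 0.16, -0.25, -0.30 and -0.01, with sets of both signs, and for Lcn2 0.33, 0.16, 0.15 and 0.00. Monocyte genes had 0.35, 0.40, -0.22 and 0.05, and Csf1r 0.26, 0.31, -0.14 and 0.08. Set 4, with the least Irf8 of the sets at 62.4 CPM against 258, 421 and 990, was the one set with a negative monocyte relation.

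RNA content moved with the score in the BCR-ABL sets. Gene reads per spike-in read, a measure of RNA per cell, had a rho with the score of 0.44, 0.50 and 0.33 in sets 1, 2 and 4 and 0.09 in Control. The number of detected genes had 0.35, 0.33, 0.29 and -0.10. Given the number of detected genes, the partial rho with Irf8 was 0.07, 0.39, -0.20 and 0.19 and that with Gfi1 -0.16, -0.39, -0.13 and -0.04. The signs stayed, and the Irf8 value of set 1 fell close to 0.

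By reads of the fate regulators, Irf8-alone wells had a higher median score than Gfi1-alone wells in each of the 3 sets that had both classes. A well was classed by at least 10 reads of Irf8, of Gfi1, of both or of neither after thinning. The median score of wells with Irf8 alone was 6.83 in set 1 (13 wells), 7.02 in set 2 (16 wells) and 6.37 in Control (51 wells), while set 4 had 0 such wells. Wells with Gfi1 alone had medians of 5.71 (35 wells), 5.54 (16 wells) and 5.70 (62 wells) in sets 1, 2 and 4 and 5.69 in Control (7 wells only). These 4 medians lay within 0.2 of each other. The lower quartiles of Gfi1-alone wells were 4.86, 3.67 and 5.06 in the BCR-ABL sets and 5.57 in Control. Their upper quartiles were 6.48, 6.43 and 6.57 against 6.77. Wells with both had medians of 6.90, 6.40, 5.69 and 6.35. Set 4 was made up of Gfi1-alone wells for 62 of 81. Its 14 wells with both had a lower median than such wells of the other sets, while its Gfi1-alone median was close to that of Control. Its 5 wells with neither had a median of 7.07, and the other sets had fewer than 5 such wells.

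**Figure D5:**
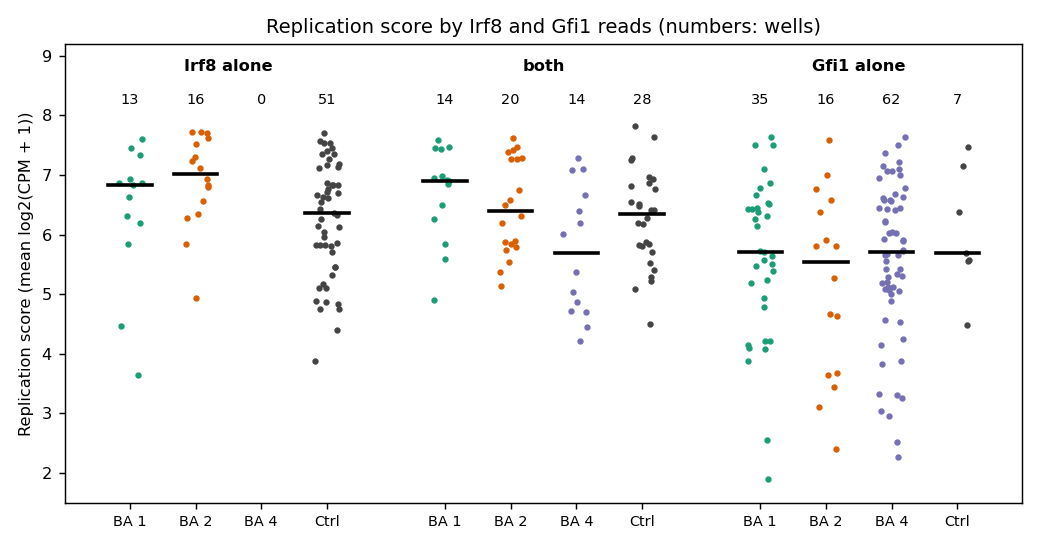
Replication score (mean log2(CPM + 1)) of each thinned well by class of Irf8 and Gfi1 reads and set, with the number of wells on top and the median as a bar. The Gfi1-alone medians lie between 5.54 and 5.71 in all sets, and the Irf8-alone medians between 6.37 and 7.02 in the 3 sets that have such wells.

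Member by member, Gfi1-alone wells had the lower mean CPM in most genes. Against Irf8-alone wells of the same set, 29 of 37 members were lower in set 1, 34 in set 2 and 25 in Control, with median log2 ratios of -0.44, -0.70 and -0.22. Of all genes tested 40.1%, 41.5% and 53.2% were lower in these sets. In all 3 sets 20 of 37 members were lower, beside 14.5% of all genes, and 0 were higher. Chaf1b, a subunit of the chromatin assembly factor, had log2 ratios of -0.97, -2.004 and -0.07 in sets 1, 2 and Control, and Hells -1.23, -1.10 and -0.40. Ung was mixed, at 0.61, -0.39 and 0.09, and Prim1 was higher in set 2 and Control. Depth was equal in these wells, but detected genes were not, with medians of 9116, 8947 and 8298 in Irf8-alone wells and 8384, 8123 and 8687 in Gfi1-alone wells of sets 1, 2 and Control. The part of this in the result was not tested.

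Within one class, BCR-ABL and Control could be set side by side. In Gfi1-alone wells 9, 9 and 11 of 37 members were above the Control wells of that class in sets 1, 2 and 4, with median log2 ratios of -0.27, -0.42 and -0.37, while 49.9%, 43.1% and 57% of all genes tested were above. In Irf8-alone wells 18 members were above Control in set 1 and 29 in set 2, with medians of -0.02 and 0.17, while 38.2% and 39.9% of all genes were above. In wells with both, 20, 25 and 4 members were above, with medians of 0.06, 0.05 and -0.41 and set 4 apart, while 39.2%, 40.7% and 40.6% of all genes were above. The Control value in the Gfi1-alone class rests on 7 wells, and with 1 Control set no spread can be given for it.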

How the data were processed

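The authors deposited a count for each Ensembl gene and well, without normalization. They used GSNAP, HTSeq 0.5.3p3 and mm10, per the submitters' processing notes. Annotation release, strandedness and read filters: not given in the sources used here. Reads of genes that overlap or lie antisense may therefore be mixed. Of all reads, 44.9% lay on genes, 0.265% on spike-ins, 7.67% outside features, 6.24% were ambiguous and 40.9% were not aligned. Spike-in and summary rows were left out of sizes and tests. GENCODE vM21, on the same assembly, named 45229 of 46078 gene rows. Without molecular identifiers, SMART-seq2 intervals cover counting error only. No doublet caller was used on these single-cell sorts.

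Counts of 323 kept wells of 384 were summed per set and tested with edgeR 4.0.16 (quasi-likelihood, TMM, filterByExpr) under R 4.3.3, adjusted by Benjamini-Hochberg over all genes at a threshold of 0.05. This step was tested on simulated data. The fit lends Control the spread of the BCR-ABL sets. DESeq2 1.42.0, other scalings, filters and weights, and left-out sets were alternatives. Scores used 290 wells of at least 674952 gene reads, thinned with seed 1, and a pseudocount of 1 CPM.

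The members and gene lists were chosen with earlier results of these data known. Values in every set were given for the Mcm genes, the 8 members with the smallest p, and the 3 at each end by level per length, by rho with the rest and by rho with G2/M genes. Of the other pathway, granule, monocyte and fate lists, the 5 genes with the smallest p were named. Genes of the fate relations were named as listed, and the divisions said to be made after the wells were seen were added. The cyclin, kinase, inhibitor and E2F genes set against the replication score were picked outside these rules.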

Additional observations from a re-analysis of the deposited data

How the results depend on the processing

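The count of members past the adjusted threshold was 0 by edgeR under every alternative run and by DESeq2. The median log2 fold change of the members was -0.12 with RLE scaling, with no filter on low counts, with a stricter well filter and by DESeq2, and -0.19 with thinned wells or with the mean of CPM over wells. Leaving out 1 BCR-ABL set gave medians between -0.19 and 0.02, and set 4 alone turned the direction; the number of positive members ranged from 7 to 21. The difference in median score ranged from -0.28 to 0.06 over left-out sets and was -0.27 in unthinned wells. The mean rho of the score with primary granule genes was -0.22, and -0.16 in unthinned wells and -0.15 given genes detected. The mean rho with the G2/M score was -0.10, and 0.055 in unthinned wells and -0.33 given genes detected; the cause was not tested. With a class limit of 50 reads, set 4 had 5 Irf8-alone wells, with a median score of 6.40. No paired analysis was possible because the Control set shares only 1 replicate number with the BCR-ABL sets. With 1 Control set, its own spread cannot be measured.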
